A study of Mus musculus with 144 samples.

Results

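Polysomal RNA of wild-type mouse liver was compared with total RNA of wild-type mouse liver over the day. All livers came from C57BL/6J mice of wild-type genotype, labelled male, housed under a 12 h light and 12 h dark cycle and fed ad libitum, and taken at Zeitgeber time (ZT, hours after lights on) 2, 6, 10, 14, 18 and 22. The comparison used 66 of the 144 libraries of the series: polysomal replicates 2 to 6 at each time (30 libraries) and total RNA replicates 1 to 6 at each time (36 libraries). Polysomal replicate 1 (6 libraries) was left out of the fit and is given beside it. For the polysomal libraries, frozen liver had been crushed under liquid nitrogen in a buffer with cycloheximide at 100 µg/mL, a drug that holds ribosomes in place on mRNA, and spun at 41000 rpm through a sucrose gradient, from which the fractions holding polysomes were taken. Total RNA came straight from tissue. Both kinds of RNA went into the same 3′ end sequencing kit (Lexogen QuantSeq), so that 1 read stands for 1 transcript end and the counts do not scale with transcript length. The labels do not say whether the replicates came from separate animals, or whether a polysomal and a total library share a liver, so the p-values measure the spread between libraries.

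A polysome is an mRNA with several ribosomes on it, so the share of a gene's mRNA in polysomes is commonly read as a measure of how actively it is translated. The mRNAs of ribosomal proteins and of several translation factors start with a cytosine followed by a run of pyrimidines, the terminal oligopyrimidine (TOP) motif, through which their entry into polysomes follows nutrient and growth signals. Non-coding RNAs and mRNAs translated inside mitochondria are not carried by cytosolic polysomes in the same way. The values below are relative within each library, given as CPM (a gene's counts scaled to a common library total): a gene that is higher in polysomal RNA holds a larger share of that library's counts than of the counts of total RNA. The part of an mRNA that is in polysomes was not measured. In whole liver, fewer cells of a type and less RNA per cell cannot be told apart.

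Ribosomal protein mRNAs, the lowest large group of nuclear-encoded mRNAs in this comparison, and other TOP mRNAs are shown here by their starts. Every start shown has a pyrimidine run, which was found at 28 of 59 ribosomal protein genes with a promoter entry. Each line gives 10 bases before the annotated RefSeq start (GRCm38.p6) and the first 20 bases after it, on the gene's strand, with capitals for the pyrimidine run from its first C within 5 bases of the annotated start, so that pyrimidines farther upstream stay in lower case; Rpl28, Rpl35, Rps18 and Rps6 were lower in polysomal RNA, Eef1a1 was slightly lower, and Rpl15, Rps9 and Rack1 were at or near their level in total RNA.
Rpl28 (chr7:4792955-4792984, +): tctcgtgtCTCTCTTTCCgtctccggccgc
Rpl35 (chr2:39005112-39005141, -): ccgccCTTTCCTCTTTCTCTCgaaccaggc
Rps18 (chr17:33955646-33955675, -): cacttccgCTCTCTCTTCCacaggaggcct
Rps6 (chr4:86857348-86857377, -): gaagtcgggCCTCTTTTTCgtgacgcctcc
Eef1a1 (chr9:78481705-78481734, -): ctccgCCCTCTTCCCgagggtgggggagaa
Rpl15 (chr14:18270967-18270996, -): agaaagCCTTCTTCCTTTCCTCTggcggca
Rps9 (chr7:3704031-3704060, +): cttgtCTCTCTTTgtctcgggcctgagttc
Rack1 (chr11:48800350-48800379, +): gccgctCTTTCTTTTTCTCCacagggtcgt

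Library depth over genes was 5316601 to 9831142 counts in total RNA (median 7749864.5) and 2578048 to 13068044 in polysomal replicates 2 to 6 (median 5111582). A median of 17469 genes had a count in total RNA and 13826 in polysomal RNA. Several libraries stood apart. Total ZT2 replicate 4 held the lowest of the 36 total values for 2744 of 11624 genes and the highest for 1906, against at most 738 and 882 in any other total library. Total ZT22 replicate 5 and polysomal ZT22 replicate 1, both labelled male, had 408 and 165 CPM of Xist, the RNA of the inactive X chromosome in females, and 0.38 and 0.352 CPM of the Y-linked Ddx3y, where the other 70 libraries had at most 2.1 CPM of Xist and at least 40.7 CPM of Ddx3y. Markers of exocrine pancreas summed to over 100 CPM in 4 polysomal libraries and in no total library; 2 of these 4, ZT2 replicate 3 and ZT10 replicate 3, reached 7155 and 2371 CPM. The counts of called genes given next were 8932 without the total library with Xist, 8978 without total ZT2 replicate 4 and 9023 without the 4 polysomal libraries with pancreas markers, beside 8957 with all of them.

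Polysomal and total RNA differed at most genes. Of 11624 genes tested, 8957 (77.1%) passed an adjusted p of 0.05 in edgeR's quasi-likelihood test with Benjamini-Hochberg adjustment: 4634 (39.9%) were higher and 4323 (37.2%) lower in polysomal RNA. Which direction had more calls depended on the scaling and the filter: 3949 were higher and 4926 lower with median-ratio size factors, 4185 and 4695 with upper-quartile scaling, and 4519 and 7218 with genes down to a mean of 1 count. At least 2-fold, 1357 genes were higher (11.7%) and 1948 lower (16.8%). Only the larger differences separated every library: all 30 polysomal libraries lay above all 36 total libraries for 372 genes (3.2%) and below them for 336 (2.89%), or for 445 (3.83%) and 444 (3.82%) without total ZT2 replicate 4. Replicates 2 and 3 and replicates 4 to 6, fitted apart with no library in common, gave 7287 and 8341 calls. Of these, 5688 were called the same way in both, which is 78.1% of the first set and 68.2% of the second, and 288 were called in opposite directions. Polysomal replicate 1 against the same total libraries gave 3730 genes higher (32.1%) and 3626 lower (31.2%). Of these calls, 6025 were also made in the same direction in replicates 2 to 6 and 328 in the opposite direction. Both fits share the total libraries.

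Most non-coding classes were lower in polysomal RNA. Among 10422 protein-coding genes, 4435 (42.6%) were higher and 3509 (33.7%) lower, with a median log2 change of 0.09. Long non-coding RNAs had 45 of 208 higher and 112 lower (median -0.55), pseudogenes 96 of 571 higher and 407 lower (median -1.6), and small non-coding RNAs 1 of 22 higher and 21 lower (median -4.15). In replicate 1 these medians were 0.06, -0.48, -1.09 and -2.69. Reads of a pseudogene and its parent gene can be hard to tell apart, so pseudogene values are uncertain.

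Malat1, a nuclear long non-coding RNA that lies in nuclear speckles, ran from 369 to 2845 CPM in total RNA (median 1750) and from 17.7 to 102 CPM in polysomal RNA (median 46.8). The ranges did not overlap, and the log2 change was -5.22 ± 0.18 (SE; edgeR adjusted p = 8.52e-35). Neat1, the scaffold of nuclear paraspeckles, fell from a median of 157 CPM (83.9 to 304) to a median of 8.47 CPM (2.59 to 43.5), a log2 change of -4.29 ± 0.16 (adjusted p = 2.05e-32), again with no overlap. Both were also low in replicate 1, at log2 changes of -4.70 and -4.11. Of 12 long non-coding RNAs listed by name, 8 were lower and 1, Tug1, was higher, beside 37.2% and 39.9% of all genes. The median of Tug1 was 4.85 CPM in total and 9.68 CPM in polysomal RNA, with overlapping ranges.

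Host genes of small nucleolar RNAs, whose introns hold the small RNAs and whose spliced exons are mostly non-coding, moved almost as one group. Of 17 tested, 15 were lower and none was higher, beside 37.2% and 39.9% of all genes. Their median log2 change was -1.75 (-1.84 in replicate 1, and 0.02 over all genes tested). Gas5, a host gene that also carries a TOP start, had 140 to 288 CPM in total RNA (median 188) and 27.1 to 60.6 CPM in polysomal RNA (median 36.3). Its log2 change was -2.40 ± 0.07 (adjusted p = 1.81e-42), without overlap, and -2.56 in replicate 1. Snhg17 had the lowest log2 change of the list, -2.51 ± 0.24, and Snhg3 the highest, 0.19 ± 0.14, which did not pass the test (adjusted p = 0.203).

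**Figure D1:**
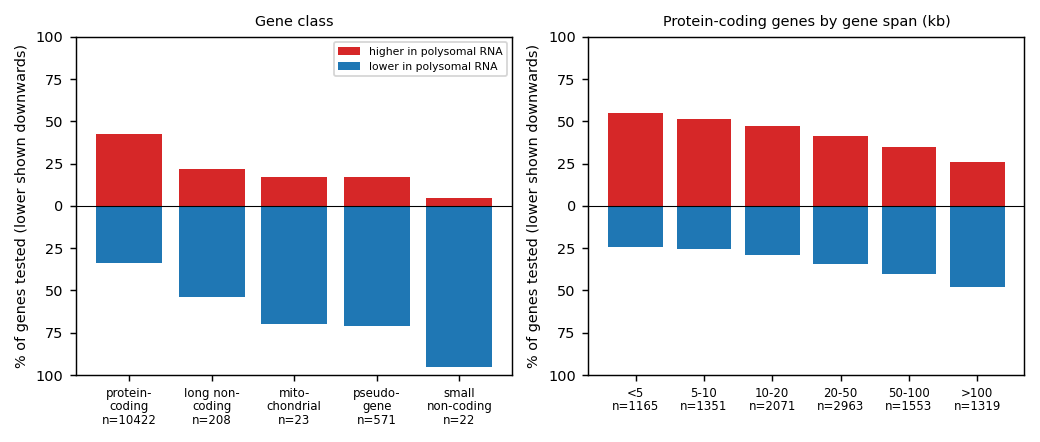
Percent of tested genes called higher (red, upwards) or lower (blue, downwards) in polysomal RNA, by gene class (left) and, for protein-coding genes, by the length of genome between gene start and end (right), with the number of genes tested under each bar. Lower calls outnumber higher calls in every class but protein-coding genes, and the share of higher calls falls from the shortest to the longest genes.

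Among protein-coding genes, those that span more of the genome were lower. The median log2 change was 0.40 for 1165 genes under 5 kb, 0.31 for 5 to 10 kb, 0.18 for 10 to 20 kb, 0.08 for 20 to 50 kb, -0.07 for 50 to 100 kb and -0.25 for 1319 genes over 100 kb. Of the shortest genes 642 were higher and 286 lower, and of the longest 346 were higher and 634 lower. Replicate 1 followed the same order, from 0.53 to -0.35. The bar plot of calls by class and by gene span shows this trend.

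mRNAs of cytosolic ribosomal proteins, the proteins of the ribosome itself, were lower in polysomal RNA. Of 80 tested, 77 were lower, 57 of them at least 2-fold, 1 was higher and 2 did not pass, with a median log2 change of -1.65. Of all genes, 37.2% were lower, 16.8% lower at least 2-fold and 39.9% higher. Their summed level was 12884 to 19784 CPM in total RNA (median 15092), 3162 to 11675 CPM in polysomal replicates 2 to 6 (median 6598) and 8800 to 15146 CPM in replicate 1 (median 10003). No polysomal library of replicates 2 to 6 reached the total range, and replicate 1 lay between the groups and overlapped total RNA. The median log2 change lay between -1.89 (ZT6) and -1.44 (ZT14) at the 6 times. In replicate 1 it was -0.65, with 50 of 80 called lower and 5 higher, beside 31.2% and 32.1% of all genes.

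**Figure D2:**
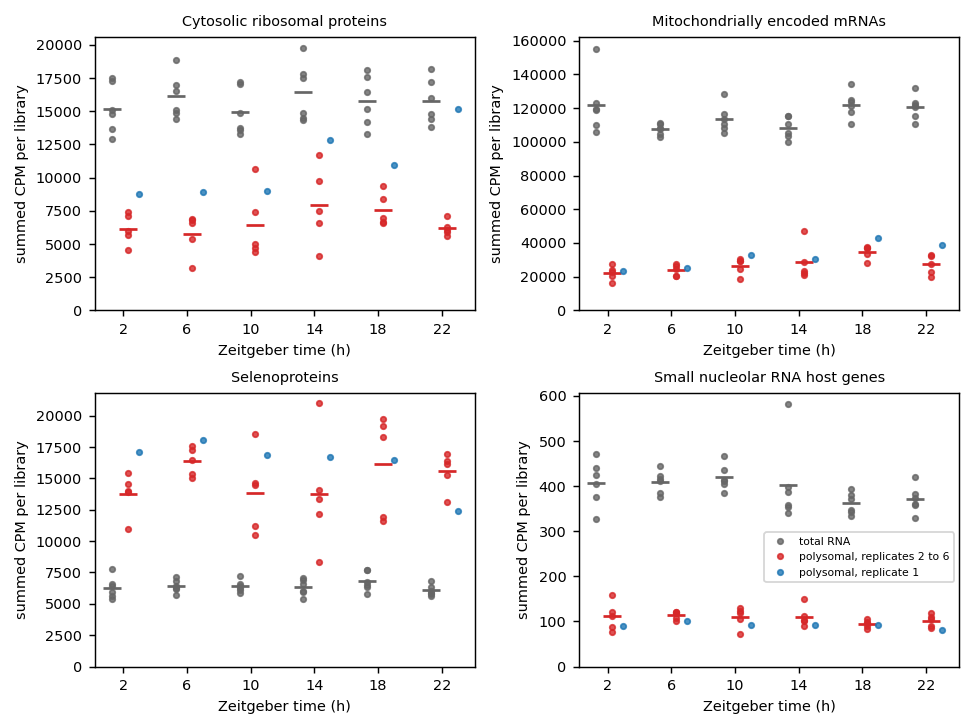
Summed CPM of 4 gene groups in each library by Zeitgeber time (grey, total RNA; red, polysomal replicates 2 to 6; blue, polysomal replicate 1; points are libraries and short lines group means). Ribosomal protein mRNAs, mitochondrially encoded mRNAs and small nucleolar RNA host genes are lower, and selenoprotein mRNAs higher, in the red points at all 6 times.

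Ribosomal protein genes did not move to the same extent. Rps19, a protein of the small subunit, had 86.0 to 190 CPM in total RNA (median 137) and 2.25 to 20.7 CPM in polysomal RNA (median 9.52), a log2 change of -3.86 ± 0.14 (adjusted p = 9e-35) without overlap. Rpl28, of the large subunit, had a median of 79.5 CPM in total and 5.35 CPM in polysomal RNA. Its ranges overlapped only through total ZT2 replicate 4, at 1.32 CPM: without that library the lowest total value was 52.2 CPM and the highest polysomal value 20.9 CPM. Its log2 change was -3.89 ± 0.22, the lowest of the list. Rplp1, a stalk protein and the member with the highest level in total RNA, had medians of 790 and 436 CPM and a log2 change of -0.94 ± 0.07, which was -0.18 and not called in replicate 1. All polysomal libraries lay below all total libraries for 22 of the 80 genes, or 37 without total ZT2 replicate 4 (backgrounds 2.89% and 3.82% of all genes). Rps9 was the gene called higher (0.18 ± 0.07, adjusted p = 0.012). It was higher at 4 of 6 times, with overlapping ranges, and did not pass under most other settings, upper-quartile scaling among them (0.10, adjusted p = 0.132). Many ribosomal protein genes have pseudogenes that can share their reads. The 21 genes with no pseudogene listed under their name had a median of -1.58, the 29 with 1 or 2 had -1.43, and the 30 with 3 or more had -1.99.

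Genes with and without a TOP-like annotated start were compared. A C within 5 bases of the annotated start followed by at least 4 C or T (searched on the gene's strand only) was found at 18.3% of the 32851 promoters of the RefSeq table, at 24.1% of 8445 tested protein-coding genes with a promoter entry, and at 28 of 59 ribosomal protein genes with an entry (47.5%). The 28 ribosomal protein genes with the run had a median log2 change of -1.34 and the 31 without it -1.76. Among tested protein-coding genes outside both TOP lists, the median was 0.08 for 1999 genes with the run and 0.10 for the rest. Of the starts printed above, Rpl15 has a run of 17 pyrimidines and a log2 change of 0.11 ± 0.12 (adjusted p = 0.412), and Rpl28 has a run of 10 and the largest fall. The annotated start need not be the start used in liver.

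Other TOP mRNAs fell less. Of 17 tested, 14 were lower, 2 higher and 1 not called, where 37.2% of all genes were lower and 39.9% higher. Their median was -0.61 (-0.45 in replicate 1). Eef1a1, the elongation factor that brings aminoacyl-tRNA to the ribosome, had 358 to 1380 CPM in total RNA (median 957) and 502 to 1329 CPM in polysomal RNA (median 735). These ranges overlapped, and the log2 change was -0.37 ± 0.08 (adjusted p = 2.95e-05). Naca and Btf3 encode the 2 subunits of the nascent polypeptide-associated complex, which binds new proteins as they leave the ribosome, and they moved apart. Naca had the lowest log2 change, -1.79 ± 0.10, with medians of 110 and 30.7 CPM, and Btf3 the highest, 1.46 ± 0.12, with medians of 7.47 and 18.9 CPM. Replicate 1 gave -1.27 and 1.59. Rack1, a ribosome-bound scaffold protein, was at -0.04 ± 0.07 (adjusted p = 0.608).

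Of 37 initiation factors, 16 were higher and 18 lower, against 39.9% and 37.2% of all genes, with a median of -0.12 (0.10 in replicate 1). The scaffold proteins of the cap-binding complex differed from one another, at log2 changes of -1.66 for Eif4g1, -2.67 for Eif4g3 and 1.21 for the related Eif4g2. Eif4g3 had medians of 30 and 5.29 CPM without overlap. Eif5a, which helps ribosomes through difficult stretches of sequence, had 143 to 322 CPM in total RNA (median 193) and 389 to 1178 CPM in polysomal RNA (median 706). Its ranges did not overlap (log2 change 1.78 ± 0.08, adjusted p = 8.36e-31), and replicate 1 gave 1.66. Of 21 aminoacyl-tRNA synthetases, which load tRNAs with amino acids, 14 were lower and 4 higher (median -0.39; -0.15 over replicates 2 and 3 and -0.80 over replicates 4 to 6). Mars, for methionine, had the lowest value (-2.63 ± 0.10) and Dars, for aspartate, the highest (0.79 ± 0.07). Tars, for threonine, the member with the highest level in total RNA, was at -0.98 ± 0.10. In replicate 1 the median of this list was 0.06, with 6 higher and 8 lower.

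mRNAs encoded by mitochondrial DNA were lower, as a sum, in all polysomal libraries; the highest total value, 155396 CPM, was that of ZT2 replicate 4. The 13 listed mRNAs summed to 99922 to 155396 CPM in total RNA (median 114479), 16484 to 47119 CPM in polysomal RNA (median 26773) and 23550 to 42973 CPM in replicate 1. Of 9 that could be tested, 7 were lower, none was higher and 2, mt-Co1 and mt-Nd6, did not pass. Among all genes tested, 37.2% were lower and 39.9% higher. mt-Nd4, a subunit of complex I, had a median of 60784 CPM in total RNA (50310 to 93530) and 9738 CPM in polysomal RNA (5545 to 20326), a log2 change of -2.65 ± 0.09 (adjusted p = 1.29e-35). mt-Nd2, of the same complex, fell from a median of 20644 to 1161 CPM (log2 change -4.24 ± 0.11), and mt-Cytb of complex III from 17475 to 8991 CPM (-1.01 ± 0.09). mt-Nd2 and mt-Nd4 did not overlap between the groups. The mitochondrial ribosomal RNAs mt-Rnr1 and mt-Rnr2 had log2 changes of -5.39 and -3.50. Of the other mitochondrial genes tested, mt-Nd1 was at -1.31, mt-Nd5 at -1.84, mt-Nd3 at -1.09, mt-Nd4l at -0.47, mt-Co1 at -0.26 and mt-Nd6 at 0.45. The tRNA genes ran from -5.98 (mt-Ti) to 2.27 (mt-Tn).

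Nuclear genes for the same organelle were not lower as a group. Over all genes tested, 39.9% were higher and 37.2% lower. Of 75 respiratory chain genes, 44 were higher and 24 lower (median 0.31; replicate 1, 51 higher and 8 lower, 0.69). Ndufc1, of complex I, had 123 to 178 CPM in total RNA and 386 to 804 CPM in polysomal RNA, without overlap (log2 change 1.91 ± 0.06, adjusted p = 2.69e-40). Ndufv3, also of complex I, had the lowest value, -1.98 ± 0.11, and Atp5g3, a ring subunit of ATP synthase, was at 0.96 ± 0.08. Of 78 mitochondrial ribosomal proteins, 35 were higher and 24 lower (median 0.11, replicate 1 0.56). Among these Mrpl54 was lowest at -2.40 ± 0.13, and Mrps21, the member with the highest level in total RNA, was at 0.62 ± 0.07. The respiratory chain median was -0.02 over replicates 2 and 3 alone, and that of the mitochondrial ribosomal proteins -0.11.

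Selenoprotein mRNAs, which carry a stop codon read as selenocysteine, were higher in polysomal RNA. Of 17 tested, 14 were higher, 2 lower and 1 not called, with a median of 1.12 (1.01 in replicate 1, also with 14 higher). The shares over all genes were 39.9% higher and 37.2% lower, and 32.1% and 31.2% in replicate 1. Their sum was 5375 to 7763 CPM in total RNA (median 6346) and 8350 to 21026 CPM in polysomal RNA (median 14824), without overlap. Selenop, the plasma carrier of selenium, had a median of 2552 CPM in total RNA and 6234 CPM in polysomal RNA (log2 change 1.19 ± 0.09, adjusted p = 4.8e-20). Gpx1, a glutathione peroxidase, had medians of 2368 and 5713 CPM (1.22 ± 0.08), and Dio1, which activates thyroid hormone, 86.8 and 285 CPM (1.6 ± 0.13). Gpx4, which reduces lipid peroxides, was at 1.31 ± 0.21, with medians of 18.2 and 37.2 CPM, but at 0.19 (adjusted p = 0.446) over replicates 2 and 3 alone. Selenoi was the lowest, at -0.43 ± 0.13. The highest value, 4.79 for Txnrd2, belongs to the genes described at the end that replicate 1 did not show to that extent (0.83).

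The 2 ferritin mRNAs, whose starts carry an iron-responsive element that holds back their translation when iron is low, were lower. Fth1, the heavy chain, had 659 to 1460 CPM in total RNA (median 981) and 92.6 CPM or more in polysomal RNA (median 203), where no library reached 659 CPM. The ranges did not overlap and the log2 change was -2.22 ± 0.10 (adjusted p = 1.73e-30). Ftl1, the light chain, had medians of 844 and 365 CPM (-1.23 ± 0.15, adjusted p = 1.12e-10) with overlap, and did not pass in replicate 1 (-0.56, adjusted p = 0.098). Of the 5 other mRNAs with such an element, 4 were higher and 1 was not called, where 39.9% of all genes were higher. Slc40a1, the iron exporter, was highest at 0.46 ± 0.08, but at -0.026 in replicate 1. There, 2 of all 7 listed mRNAs, ferritins included, were higher and 1 lower (median -0.09).

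mRNAs with upstream reading frames known to set their translation went different ways: 9 of 16 were higher and 4 lower (median 0.35, replicate 1 0.77). The shares over all genes were 39.9% and 37.2%. Atf4, the main effector of the integrated stress response, had 88.0 to 242 CPM in total RNA (median 128) and 36.1 to 133 CPM in polysomal RNA (median 65.0), a log2 change of -1.03 ± 0.07 (adjusted p = 3.26e-20). Ddit3 was the lowest, at -2.11 ± 0.17, with medians of 8.91 and 2.44 CPM. The liver transcription factor Cebpb was the highest, at 1.85 ± 0.14, with medians of 17 and 60.3 CPM, and Atf5 was at 0.54 ± 0.12. Replicate 1 gave -0.59, -2.43, 2.28 and 1.08 for Atf4, Ddit3, Cebpb and Atf5.

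CCT chaperonin and heat shock genes were mostly lower, with 13 of 18 lower and 2 higher (median -0.56). Hspa8, the constitutive Hsp70, had medians of 80.7 and 23.2 CPM (-1.92 ± 0.10), Hsp90ab1 977 and 502 CPM (-0.88 ± 0.10), and Hspe1, the mitochondrial co-chaperonin, was highest at 0.40 ± 0.07. Genes of folding in the endoplasmic reticulum were mixed, with 11 of 20 higher and 7 lower (median 0.29). The abundant chaperones Hspa5 and Hsp90b1 were lower, at -1.19 ± 0.14 and -1.47 ± 0.13, while Sdf2l1, a partner of Hspa5, was higher at 1.76 ± 0.15. Proteasome subunits gave 16 of 34 higher and 13 lower (median 0.11), from -2.25 ± 0.10 for Psma4 to 1.72 ± 0.14 for Psmb9, with Psma7 at -0.01 ± 0.07. In replicate 1, 21 of the 34 were higher and 3 lower (median 0.45). All genes tested gave 39.9% higher and 37.2% lower in replicates 2 to 6, and 32.1% and 31.2% in replicate 1.

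**Figure D3:**
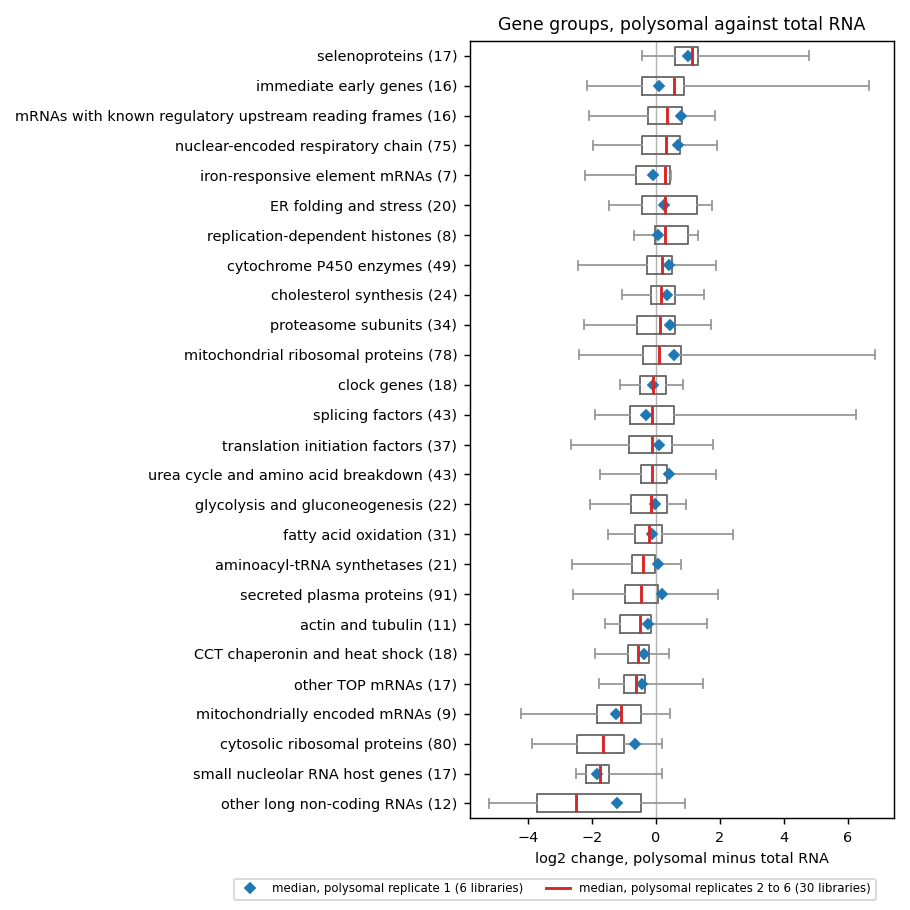
log2 change in polysomal against total RNA of the tested members of 26 gene groups (number tested in brackets): box, interquartile range of the members; red line, median; whiskers, lowest and highest member; blue diamond, median in polysomal replicate 1. Long non-coding RNAs, small nucleolar RNA host genes, ribosomal proteins and mitochondrially encoded mRNAs have the lowest medians and selenoproteins the highest.

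mRNAs of secreted plasma proteins, the main products of hepatocytes, were lower in replicates 2 to 6 and not in replicate 1. Of 91 tested, 52 were lower and 17 higher (median -0.45), but in replicate 1, 36 were higher and 26 lower (median 0.19). All genes gave 37.2% lower and 39.9% higher in replicates 2 to 6, and 31.2% and 32.1% in replicate 1. The replicate 1 counts of this list thus lay near those of all genes. Alb, serum albumin, was lower in both: it had 14701 to 73113 CPM in total RNA (median 48524) and 5807 to 34886 CPM in polysomal RNA (median 20536), with log2 changes of -1.33 ± 0.10 (adjusted p = 1.24e-19) and -1.27 in replicate 1. Proc, the anticoagulant protein C, was lowest at -2.59 ± 0.08 (replicate 1, -0.95). Igfbp4, which binds insulin-like growth factors, was highest at 1.93 ± 0.08, with 1021 to 1895 CPM in total and 2320 to 9827 CPM in polysomal RNA. Apoa2, of high-density lipoprotein, had medians of 5236 and 12899 CPM without overlap (1.30 ± 0.08, replicate 1 2.05).

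Metabolic groups had medians near that of all genes in replicates 2 to 6, where all genes gave 39.9% higher and 37.2% lower. Cytochrome P450 enzymes gave 20 of 49 higher and 11 lower (median 0.18). Cyp2e1, the member with the highest level, was at -0.10 ± 0.07 (adjusted p = 0.207), Cyp2a12 lowest at -2.45 ± 0.10 and Cyp2c39 highest at 1.88 ± 0.24. Cholesterol synthesis gave 11 of 24 higher and 4 lower (median 0.17), from -1.07 ± 0.20 for Hmgcs1 to 1.5 ± 0.10 for Tm7sf2, with Sc5d at 0.42 ± 0.08. Glycolysis and gluconeogenesis gave 7 of 22 higher and 11 lower (median -0.15). Here Tpi1 was highest at 0.93 ± 0.09. Urea cycle and amino acid breakdown gave 14 of 43 higher and 18 lower (median -0.13), from -1.74 ± 0.15 for Bhmt to 1.87 ± 0.13 for Sdsl, with Gnmt at 0.05 ± 0.11. Fatty acid oxidation gave 9 of 31 higher and 16 lower (median -0.22). Hadha was lowest at -1.51 ± 0.08, and Fabp1 was at -0.55 ± 0.09. The P450 and the urea cycle median changed sign between replicates 2 and 3 (0.31 and 0.19) and replicates 4 to 6 (-0.25 and -0.41). The cholesterol synthesis median was 0.69 over replicates 2 and 3 and 0.01 over replicates 4 to 6. In replicate 1 the medians were 0.40 for P450 enzymes, 0.34 for cholesterol synthesis and -0.04 for glycolysis and gluconeogenesis. They were 0.41 for urea cycle and amino acid breakdown, with 24 of 43 higher and 9 lower, and -0.13 for fatty acid oxidation.

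For the next groups, the shares over all genes were 39.9% higher and 37.2% lower. Clock genes, whose levels cycle over the day, had 5 of 18 higher and 7 lower (median -0.10). Dbp, an output gene of the clock, was at 0.29 ± 0.23 (adjusted p = 0.249), Nr1d1 highest at 0.85 ± 0.22, Bhlhe41 lowest at -1.11 ± 0.34 and Rora at 0.17 ± 0.08 (adjusted p = 0.0602). Immediate early genes had 9 of 16 higher and 5 lower (median 0.55, replicate 1 0.11). Zfp36l1, an RNA-binding protein that speeds mRNA decay, had medians of 142 and 313 CPM (1.11 ± 0.08, replicate 1 0.15), and Gadd45g was lowest at -2.14 ± 0.31. Histone genes that depend on replication had 4 of 8 higher and 1 lower (median 0.28), from -0.68 ± 0.09 for Hist1h2bc to 1.31 ± 0.12 for Hist1h1c. Actin and tubulin genes had 8 of 11 lower and 1 higher. That one was Actb, whose total range of 297 to 1438 CPM lay below its polysomal range of 2070 to 5849 CPM (1.59 ± 0.08, adjusted p = 8.13e-28), and Tubb2b was lowest at -1.6 ± 0.27. Splicing factors had 14 of 43 higher and 20 lower (median -0.12), with Clk1 lowest among them at -1.91 ± 0.10 and Hnrnpu at -0.90 ± 0.07. The box plot of gene groups sets these medians side by side.

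Few genes passed the test of a fraction difference that varied over the day. With 5 degrees of freedom for fraction by time, 1 of 11624 genes (0.0086%) passed an adjusted p of 0.05 and 558 (4.8%) had an unadjusted p under 0.05; a fit with a 24 h cosine and sine gave 5 genes. The gene was Gm5905, a pseudogene, at 344 to 671 CPM in total RNA and 6.35 to 34.9 CPM in polysomal RNA, and its log2 change went from -5.44 at ZT2 to -3.72 at ZT18. A count this low does not show that the fractions kept the same difference at every time. The other 7 genes with the smallest p, none of which passed, were Tchp, Scarf1, Gm12900, 6430590A07Rik, Gm42659, Gm44829 and Gm13136, each lower in polysomal RNA.

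All 5 tested red blood cell markers were higher in polysomal RNA (median 1.80, replicate 1 1.66). Their sum was 546 to 13135 CPM in total RNA (median 2586) and 2157 to 20823 CPM in polysomal RNA (median 7805). Hba-a1, an alpha globin, had medians of 468 and 2063 CPM (2.22 ± 0.23). Hepatocyte markers gave 3 of 10 higher and 4 lower, Kupffer cell markers 4 of 13 and 6, sinusoidal endothelium 2 of 12 and 7, and stellate cell markers 1 of 11 and 7, where all genes gave 39.9% higher and 37.2% lower. Pancreas markers summed to a median of 35.2 CPM in total and 24.6 CPM in polysomal RNA, the 4 libraries named above included. The part of blood or other cells in the gene results was not tested.

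The 12 largest rises and some of the largest falls did not reach that size in polysomal replicate 1. By the rule of the 12 largest rises and 12 largest falls among protein-coding genes, all 12 rises (Ppp1ca, Tmem150a, Lsm4, Desi2, Slc30a1, Mrps23, Jund, Tmem134, Hhex, Celf1, Srsf1 and Coro1b; log2 changes from 7.44 to 6.26) were genes at 0.183 to 1.51 CPM in total RNA and 0.399 to 3.18 CPM in replicate 1, and at 30.8 to 200 CPM in replicates 2 to 6. Ppp1ca, a catalytic subunit of protein phosphatase 1, had 0.188 to 2.26 CPM in total RNA, 1.57 to 3.9 CPM in replicate 1 and 108 to 335 CPM in replicates 2 to 6. Falls of the same kind were Rnf181, Mat2a, Rps6kb2, Mup9 and Vamp8 (-5.99, -5.97, -4.74, -4.59 and -4.11), which in replicate 1 were at -0.25, 0.53, -0.44, 0.47 and 1.45. Mat2a encodes an enzyme that makes the methyl donor S-adenosylmethionine. It had a mean of 74.3 CPM in total RNA, 112 CPM in replicate 1 and 1.2 CPM in replicates 2 to 6. Mup9 belongs to a family of near-identical genes, so its reads may be split among copies.

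These genes lay close together and were sorted by strand. Over 8-fold apart from both total RNA and replicate 1 in the same direction (on CPM + 0.1) were 52 genes, 13 of them listed pancreas genes, and 33 remained so without the 4 libraries with pancreas markers. Of the 29 protein-coding genes among these 33, 18 were higher in replicates 2 to 6: 14 on the plus strand, none on the minus strand and 4 with no strand in the RefSeq table used. The other 11 were lower: 10 on the minus strand, none on the plus strand and 1 with no strand. Within 250 kb of another of the 29 were 21. Over all tested protein-coding genes the strands did not differ in this way, with medians of 0.07 on the plus and 0.11 on the minus strand. At the facing ends of Tmem150a (plus strand) and Rnf181 (minus strand) on chromosome 6, the minus-strand poly(A) site at chr6:72359711-72359935 (mm10) had 91.7 CPM in total RNA, 63.6 CPM in replicate 1 and 1.11 CPM in replicates 2 to 6, as shares of site counts. The plus-strand sites at chr6:72359704-72359717 and chr6:72359752-72359762, which the authors' filtered list leaves out, had 0.338 and 0.325 CPM in total RNA, 0.408 and 0.459 CPM in replicate 1 and 59.8 and 106 CPM in replicates 2 to 6. By the rule that chose them, replicates 2 to 6 lay over 8-fold from replicate 1, which is the same fraction. At these genes the sets of polysomal libraries therefore differ from each other. The rule did not ask replicate 1 to match total RNA: its log2 change against total RNA was 1.30 for Ppp1ca and -0.25 for Rnf181. What sets these genes apart was not tested.

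**Figure D4:**
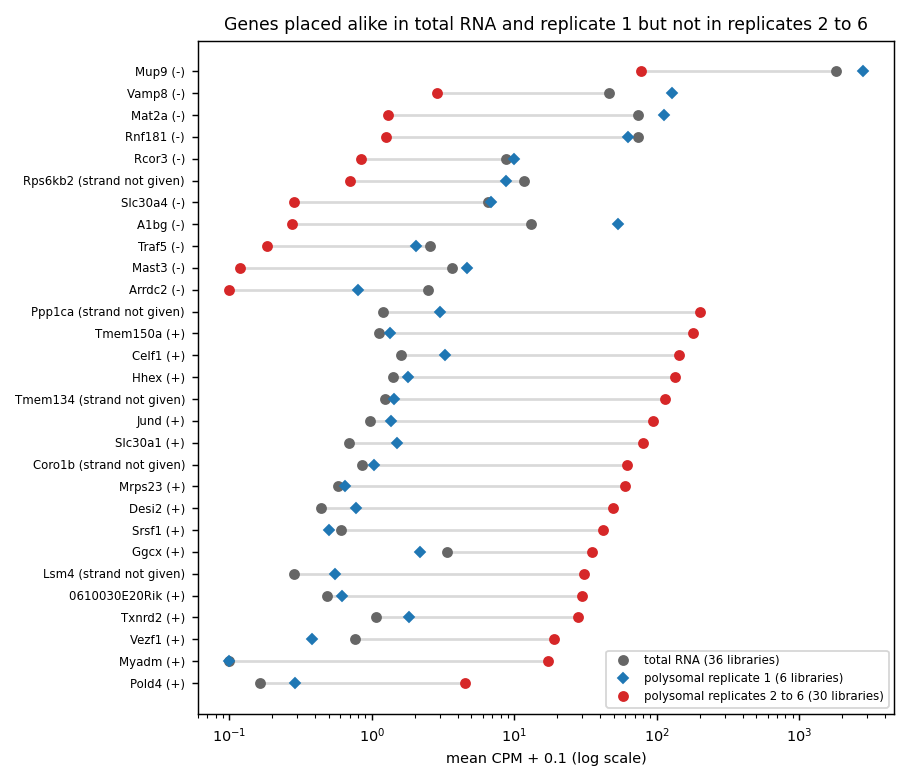
Mean CPM + 0.1 (log axis) of the 29 protein-coding genes over 8-fold apart in polysomal replicates 2 to 6 (red) from both total RNA (grey) and polysomal replicate 1 (blue diamonds), with the gene's strand in brackets. Genes on the plus strand are higher and genes on the minus strand lower in replicates 2 to 6.

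Other large changes were also large in replicate 1; these genes were picked after their values were seen, except the falls that the rule also names. Syne2, a giant protein of the nuclear envelope, had 22.9 to 68.8 CPM in total RNA and 0.216 to 12.9 CPM in polysomal RNA (-3.74 ± 0.19; replicate 1, -3.02). The muscle giant Neb was at -3.72 ± 0.29 (replicate 1, -3.12), Rpl17 at -3.78 ± 0.20 (-2.53) and Rpl36 at -3.19 ± 0.21 (-2.51). Arf5, a small GTPase of the Golgi, rose from 42.2 to 100 CPM in total RNA (median 64.6) to 343 to 1759 CPM in polysomal RNA (median 710), without overlap (3.47 ± 0.10, adjusted p = 4.47e-40; replicate 1, 2.84). Timm17b, of the import channel of the mitochondrial inner membrane, had 32.1 to 51.6 CPM in total RNA and 162 to 346 CPM in polysomal RNA (2.52 ± 0.07; replicate 1, 2.10). Pfn1, which binds actin, had medians of 2.41 and 45.5 CPM (4.05 ± 0.27; replicate 1, 4.08) with overlap.

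Poly(A) sites, where transcripts end, were also used differently. Of 10559 sites in 3411 genes with at least 2 tested sites, the share of the gene's counts differed at 7393 (70.0%): 3452 sites were higher (32.7%) and 3941 lower (37.3%), in 2970 genes. At the most 3′ (distal) site 1784 of 3411 genes were higher and 667 lower, and at the other sites 1668 of 7148 were higher and 3274 lower. The mean share at the distal site was 43.7% ± 2.87 (SD, n = 36) in total RNA and 49.2% ± 2.12 (SD, n = 30) in polysomal RNA, a difference of 5.49 percentage points (2-sided permutation test within times, p = 1e-05, the smallest it can give). Without total ZT2 replicate 4, whose share of 57.4% was above all polysomal libraries, the highest total library was at 47.4% and the difference was 5.88 points. Polysomal libraries ran from 45.7% to 54.0%, so the groups overlapped. As levels, 14276 of 18826 sites (75.8%) differed, 6593 higher (35%) and 7683 lower (40.8%).

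The distal gain depended on the distance between sites. In the 1388 genes with exactly 2 sites, the median gain was 11.8 points for 242 genes with sites up to 100 bp apart (192 higher, 4 lower) and 4.41 points for 403 genes over 100 and up to 250 bp apart (190 higher, 26 lower). It was 0.45 points over 250 and up to 1000 bp (106 higher, 100 lower of 312) and -0.08 points over 1000 and up to 5000 bp (93 higher, 85 lower of 250). It was 1.48 points over 5000 and up to 20000 bp (45 higher, 29 lower of 98) and 8.83 points over 20000 bp (46 higher, 20 lower of 83). Replicate 1 gave 12.3, 4.82, -0.71, 0.30, 3.75 and 6.89 points in the same order. For the closest pairs the mean distal share ran from 29.5% to 64.8% over total libraries (median 35.9%) and from 42.0% to 62.4% over polysomal libraries (median 49.3%).

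**Figure D5:**
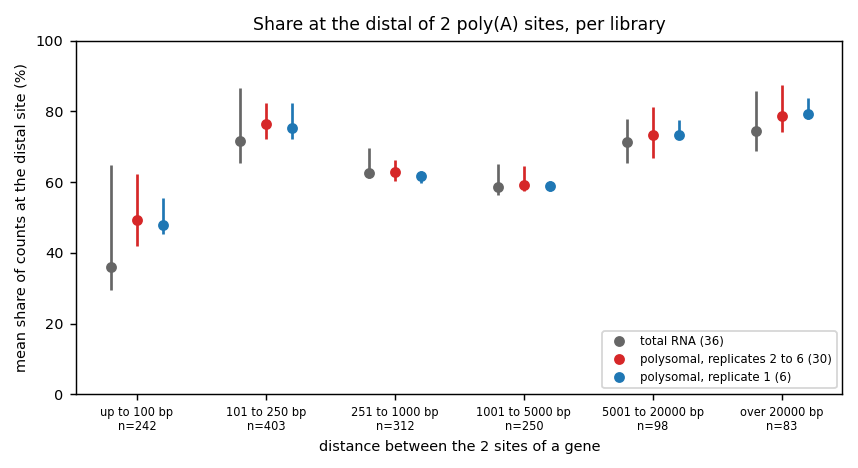
Mean share of counts at the distal of 2 poly(A) sites by the distance between them (grey, 36 total libraries; red, 30 polysomal libraries; blue, 6 libraries of polysomal replicate 1; points are medians over libraries and lines the lowest to highest library). The groups differ most for sites up to 250 bp or over 20000 bp apart.

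The largest single differences were not limited to sites close together or far apart. Plac8 and Coa7 have sites 60 and 72 bp apart, and their distal sites rose from 29.5% ± 15.2 to 82.4% ± 9.81 and from 12.4% ± 7.92 to 64.5% ± 10.9 (SD, n = 36 and 30; edgeR adjusted p = 1.43e-16 and 4.62e-26). Bptf, a chromatin remodelling factor, has its outer sites 75771 bp apart. Its site chr11:107035542-107035673 (mm10, minus strand, the fourth of 5) rose from 25.2% ± 5.6 (at most 41.2%) to 78.7% ± 11.5 (at least 54.8%), without overlap (adjusted p = 7.67e-29). The distal site of Sept7, whose outer sites lie 7139 bp apart, rose from 35.5% ± 6.19 to 88.4% ± 7.23, without overlap. Marf1, with sites 44843 bp apart, went the other way: its proximal site rose from 26.4% ± 6.4 to 76.1% ± 7.62. Dync1h1, the motor of dynein, had its distal share fall from 79.0% ± 5.26 to 31.4% ± 19.4, with 62.4% in replicate 1. Topors and Papd5 have their outer sites 2002 and 2268 bp apart. The share at 1 site of Topors fell from 63.5% ± 8.12 to 10.8% ± 12.7 and at 1 of Papd5 from 80.0% ± 4.62 to 32.2% ± 14, with 17.7% and 61.9% in replicate 1. In genes with 2 tested sites over 20000 bp apart the distal share rose in Erc1 (47.2% to 85.2%), Atp6v1e1 (60.8% to 90.6%), Mob3b (69.5% to 96.9%), Ahnak (67.1% to 92.3%), Ubn1 (57.7% to 80.5%) and Lonp2 (53.5% to 75.5%); these 6 were chosen after their values were seen.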

How the data were processed

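Raw counts per gene and per poly(A) site were deposited by the authors; per the submitters' processing notes, STAR 2.4.2a, HOMER and edgeR and the builds mm10 and GRCm38.p5 were used, with no role given. Strand in counting is not given in the sources used here, so overlapping and antisense genes are uncertain. Members, gene lists and tests were chosen with earlier results of these data known. Genes averaging 10 or more counts over the 66 libraries were fitted with edgeR 4.0.16 in R 4.3.3 (TMM scaling, quasi-likelihood test, 12 groups of fraction and time, the contrast weighing the 6 times equally). The same total libraries serve the comparison with replicate 1. Sites of the deposited filtered list were given to 1 gene by strand and position up to 1000 bp past its end (22324 of 29199 sites; 498 were left out because site and gene counts disagreed). Usage was tested with the log of the gene's site total + 0.5 as offset, at sites with at least 5% of the gene's counts in genes averaging 50 or more counts. Genes named were the 12 largest rises and falls among called protein-coding genes averaging 50 or more counts, with 1 direction at 6 of 6 times, the highest-level, highest and lowest member of each list, a few fixed names, the 8 smallest p over time, and the sites with the largest differences in 5 genes each way. Some genes that this rule names are not reported here. Gene types came from RefSeq (11229 of 11624 tested genes matched by symbol or synonym); protein sequences were not used here. No 2 libraries of a group agreed within sampling noise. On simulated counts for the same 11624 genes, the level test recovered 75 of 100 genes changed 1.5-fold and 100 of 100 changed 3-fold, with 8 false calls. Only these genes were changed in the simulation, and the same dispersion was set for all genes. It therefore does not give the error rate of data in which most genes differ, as here. The alternatives were other scalings and filters, DESeq2 1.42.0, a replicate block, subsets of replicates and leaving out libraries.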

Additional observations from a re-analysis of the deposited data

Results flagged for a closer look

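In groups of 5 or 6 libraries, 96 sets of values were examined for 1 library far from the rest. Of these, 11 values stood apart, where chance would give about 4.8 if the sets were independent and their values normally distributed. Several sets come from the same libraries, so that number is only a rough guide. Total ZT2 replicate 4 accounted for 3: its distal site share was 57.4% (next highest 44.8%), its mitochondrially encoded mRNAs summed to 155396 CPM (next 123192) and its plasma protein mRNAs to 145528 CPM (next lowest 192805). Pancreas markers reached 7155 CPM in polysomal ZT2 replicate 3 (next 34.9) and 2371 CPM in polysomal ZT10 replicate 3 (next 27.0), and were lowest in polysomal ZT18 replicate 5 at 14.8 CPM (next 22.1). Mitochondrially encoded mRNAs summed to 47119 CPM in polysomal ZT14 replicate 5 (next 28462). Plasma protein mRNAs summed to 234476 CPM in total ZT6 replicate 6 (next 217467) and 184647 CPM in polysomal ZT22 replicate 4 (next 137635). Small nucleolar RNA host genes summed to 581 CPM in total ZT14 replicate 4 (next 398.9), and red blood cell markers to 13135 CPM in total ZT22 replicate 3 (next 3647).

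The difference between the fractions varied over the 6 times for Gm5905 (edgeR, adjusted p = 0.0318; lower at 6 of 6 times, log2 change -5.44 to -3.72).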

How the results depend on the processing

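Of 106 values of the counts and of the distal share under other settings, 88 stayed within 1.5 times the count or kept their direction and call. The count of genes at least 2-fold apart (3305) was 5826 with a filter of a mean of 1 count and 2047 with 50; called sites by usage (7393) were 3219 in genes with a mean of 200 counts, and by level (14276) 6546 with a mean of 50 counts; each filter changes how many are tested. The 1 gene that varied over time became 0 with all 36 polysomal libraries, 0 over replicates 2 and 3, 5 with a 24 h cosine and sine, and 0 to 7 when single replicates or libraries were left out. Leaving out single replicates, or single libraries chosen after seeing the data, gave 8645 to 9101 called genes, 3224 to 3454 at least 2-fold, 6980 to 7583 sites by usage and a distal gain of 5.02 to 6.00 points. With a replicate block (replicates 2 to 6) the counts were 8705 genes, 3244 at least 2-fold, 1 over time and 7120 sites. Same-numbered libraries had a mean correlation of deviations of -0.08, and none of 30 polysomal libraries correlated best with its own number. Median-ratio size factors moved the median of all genes by -0.12 and the higher share of called genes from 51.7% to 44.5%. Among 109 named genes, a turn of sign was counted only where at least 1 of the 2 values passed the test. Counted so, signs turned for Rps9 (-0.028) and Eif4ebp2 (0.28) over replicates 4 to 6. In replicate 1 alone, chosen after seeing the data, they turned for Mat2a (0.53), Mup9 (0.47), Vamp8 (1.45), Srsf1 (-0.66), Rack1 (0.33), mt-Nd6 (-0.75), Psma7 (0.48), Slc40a1 (-0.026), Cyp2e1 (0.31) and Hist1h2bc (0.032). The causes were not tested.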
